A study of Rattus norvegicus with 241 samples.

Results

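The genes of the Wnt ligands, their receptors and their secreted antagonists were followed across the libraries of rat mammary gland. Members were taken by gene symbol under a rule that uses no measured value, although this gene family was picked with earlier results of these data known. There were 48 members among the 21707 genes listed in the tables: 19 Wnt ligands, 4 R-spondins, 10 Frizzled receptors, the co-receptors LRP5 and LRP6, the R-spondin receptors LGR4, LGR5 and LGR6, 9 secreted antagonists of the SFRP, DKK and WIF families, and AXIN2. LGR6, WNT2, RSPO4 and DKK1 were analysed in single-cell data only, and FZD10, WNT3A and WNT8B in bulk data only.

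The study set rats given LY2157299, an inhibitor of the kinase of TGFBR1 (TGFBRi), at 75 mg/kg in 2 doses per day against vehicle, in 202 bulk and 39 single-cell libraries. Young virgin ACI rats, an inbred strain, were treated from 35 days of age for 10 days and sampled 0, 7 or 14 days later (3 rats per group and day). Young virgin SD rats, an outbred strain, were treated from 24 days of age for 10 days and sampled at day 0 (4 rats per group). Adult ACI rats aged 18 to 24 weeks, virgin or parous, were treated for 10 days (4 rats per group, or 2 and 3 in 2 of the CD45+ groups). SD rats treated from 21 days of age for 10 days received 50 mg/kg of the carcinogen N-nitroso-N-methylurea (NMU). They were sampled 87 days later, as vehicle rats with tumors, TGFBRi rats without tumors and TGFBRi rats with tumors (3 rats each). ACI rats treated for 21 days from 38 days of age carried an implant with 37 mg of 17β-estradiol (E2) or an empty one. The groups with E2 were vehicle rats with tumors (4 rats), tumor-free TGFBRi rats (4 rats, 1 of them with 4 libraries per fraction that were averaged) and TGFBRi rats with tumors (2 rats), beside tumor-free vehicle (4) and TGFBRi (3) rats without E2. Every vehicle rat with E2 had tumors, so E2 and tumor status cannot be told apart in that group. Cells were sorted from the CD31-CD45- gate as luminal (CD24+CD29low) or basal (CD24+CD29high), or as CD45+ leukocytes, and whole SD glands were also profiled cell by cell. The single-cell rats were treated for 10 days and sampled at day 0, ACI rats from 35 days of age (3 TGFBRi and 3 vehicle rats, sorted) and SD rats from 24 days of age (6 TGFBRi and 3 vehicle rats, both for sorted cells and for whole glands).

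Bulk libraries held between 4194912 and 52314784 reads on genes, and values are given as normalized reads, that is reads divided by a size factor for each library. Gene lengths were not used, so bulk levels are compared between samples and not between genes. Single-cell values are unique molecular identifiers (UMIs) summed per rat and given as CPM, counts scaled to the same total per library. The 8 basal epithelial markers were all higher in the basal than in the luminal sort of both strains, and 7 of 7 luminal markers in ACI and 6 of 7 in SD rats were lower. The basal sorts were not free of stroma. In vehicle SD rats the summed fibroblast list reached 372766 to 596036 normalized reads in the basal sort and 5477 to 20032 in the luminal sort, with 8 of its 10 tested genes higher in the basal sort, and the Schwann cell list reached 11481 to 14583 against 4580 to 6512. In vehicle ACI rats the fibroblast list reached 16472 to 128485 normalized reads against 5977 to 36286. The luminal library of SD vehicle replicate 1 held 68721 normalized reads of the basal list, and the other 3 held 4558 to 12004. For 1 ACI rat of day 7, the basal and luminal libraries were titled and tagged as control but described as treated. They were taken as vehicle. A CD45+ library titled day 9 was taken as day 7, the day of its other labels. Cell barcodes shared between libraries made up 0.418% of the sorted ACI cells, 1.086% of the sorted SD cells and 12.069% of the whole-gland cells. In bulk data, fewer cells of a type and less RNA per cell cannot be told apart.

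Wnt proteins are secreted ligands that bind Frizzled receptors together with LRP5 or LRP6. In the canonical branch this stabilizes β-catenin, which acts with TCF and LEF factors on target genes such as AXIN2, itself an inhibitor of the pathway. R-spondins bind LGR4, LGR5 and LGR6 and keep Frizzled receptors at the cell surface, whereas SFRP proteins and WIF1 bind Wnt ligands and several DKK proteins bind the co-receptors. In the mammary gland, WNT4 and R-spondins made by hormone-responsive luminal cells are known paracrine signals to basal cells.

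The promoters of 4 members that differed between basal and luminal cells are printed here from RefSeq (GRCr8). Each runs 250 bases before to 50 bases after the start of the gene on the + strand. The first is that of AXIN2 at chr10:94398535-94398834. Those of WNT10A at chr9:83798344-83798643 and of WNT6 at chr9:83778302-83778601 belong to neighboring genes on chromosome 9, both higher in basal cells. That of WNT4, a ligand higher in luminal cells, lies at chr5:154797200-154797499. Capitals mark CTTTGA or its reverse complement TCAAAG, the core letters bound by TCF and LEF factors.
AXIN2: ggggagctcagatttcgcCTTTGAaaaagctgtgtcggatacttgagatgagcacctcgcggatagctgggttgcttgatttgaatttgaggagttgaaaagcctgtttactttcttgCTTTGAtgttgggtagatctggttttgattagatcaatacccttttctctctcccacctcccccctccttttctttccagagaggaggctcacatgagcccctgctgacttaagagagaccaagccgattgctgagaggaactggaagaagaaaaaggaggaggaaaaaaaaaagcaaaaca
WNT10A: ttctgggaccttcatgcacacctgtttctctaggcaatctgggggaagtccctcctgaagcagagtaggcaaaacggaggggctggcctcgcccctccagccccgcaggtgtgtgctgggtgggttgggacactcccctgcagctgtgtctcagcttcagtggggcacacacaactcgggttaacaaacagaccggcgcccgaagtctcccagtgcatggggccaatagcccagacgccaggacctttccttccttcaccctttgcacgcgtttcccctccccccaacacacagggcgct
WNT6: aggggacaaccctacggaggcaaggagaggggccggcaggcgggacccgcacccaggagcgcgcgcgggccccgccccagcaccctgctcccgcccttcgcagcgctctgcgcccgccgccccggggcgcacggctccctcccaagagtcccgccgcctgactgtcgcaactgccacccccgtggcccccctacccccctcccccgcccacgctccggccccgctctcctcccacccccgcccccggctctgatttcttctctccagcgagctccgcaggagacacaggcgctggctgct
WNT4: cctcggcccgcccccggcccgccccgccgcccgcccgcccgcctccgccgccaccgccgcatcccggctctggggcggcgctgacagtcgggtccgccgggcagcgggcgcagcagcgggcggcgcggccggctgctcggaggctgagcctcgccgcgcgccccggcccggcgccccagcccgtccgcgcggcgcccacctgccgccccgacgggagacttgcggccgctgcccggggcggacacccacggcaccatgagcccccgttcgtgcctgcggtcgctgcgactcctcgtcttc

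The AXIN2 window held 2 matches to CTTTGA, and the windows of WNT10A, WNT6 and WNT4 held none. Over both strands, 16.1% of the 33469 promoters of this length in the table held the letters. Of the 32 members with a promoter in the table, 4 held them (12.5%), AXIN2, DKK1, FZD7 and WNT8A. The letters CAGAC, found in sites bound by SMAD factors, were in 14 members (43.8%) and in 50.1% of all promoters, and the WNT10A window held 2 copies. CACCTG, a form of the E-box, was in 6 members (18.8%) and in 18.8% of all promoters, with 2 copies in the WNT10A window and 1 in that of WNT4.

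Between basal and luminal cells of vehicle rats, more than 1 in 2 tested members differed in each of the 4 data sets. Called in each of them were SFRP1, SFRP2, DKK3, WIF1, the canonical ligands WNT6 and WNT10A, WNT5A, FZD1, FZD2 and AXIN2, higher in basal cells, and WNT4 and WNT7B, higher in luminal cells. In bulk ACI libraries (9 against 9 over the 3 days), 22 of 42 members passed an adjusted p of 0.05 (limma), 15 higher in basal and 7 in luminal cells, where 34.1% of all genes tested passed. In bulk libraries of young SD rats (4 against 4), to which the SD bulk values between fractions refer, 22 of 41 passed, 17 higher in basal and 5 in luminal cells, where 40.9% of all genes passed. In sorted single cells, tested as UMIs summed per rat (3 against 3, edgeR, adjusted p of 0.1), 26 of 33 members passed in ACI rats where 66.7% of all genes did, and 25 of 31 in SD rats where 53.7% did. Basal and luminal libraries of 1 number came from the same rat. With the rat as a block, the ACI bulk calls rose from 22 to 28, LGR4, LRP6, FZD10, RSPO2 and WNT7A being higher in basal and RSPO1 in luminal cells (adjusted p from 0.00713 to 0.0423, limma), none was lost, and no SD bulk call changed. The filter on low values kept all members of the bulk tables and 33 of 37 and 31 of 41 members of the ACI and SD single-cell tables. The median log2 difference over the members tested, basal minus luminal, was 0.93 in ACI and 1.33 in SD bulk data, and 1.27 and 1.59 in the single-cell data, beside medians over all genes of 0.14, 0.02, -0.01 and -0.01. With the basal or the luminal library of the rat with conflicting labels left out, 24 and 21 members passed in ACI rats. Of the other genes of the pathway (transducers, TCF and LEF factors, further regulators and targets), 21 of 38 tested were higher in basal and 2 in luminal cells of ACI bulk libraries, and 17 and 1 of 38 in SD bulk libraries.

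**Figure D1:**
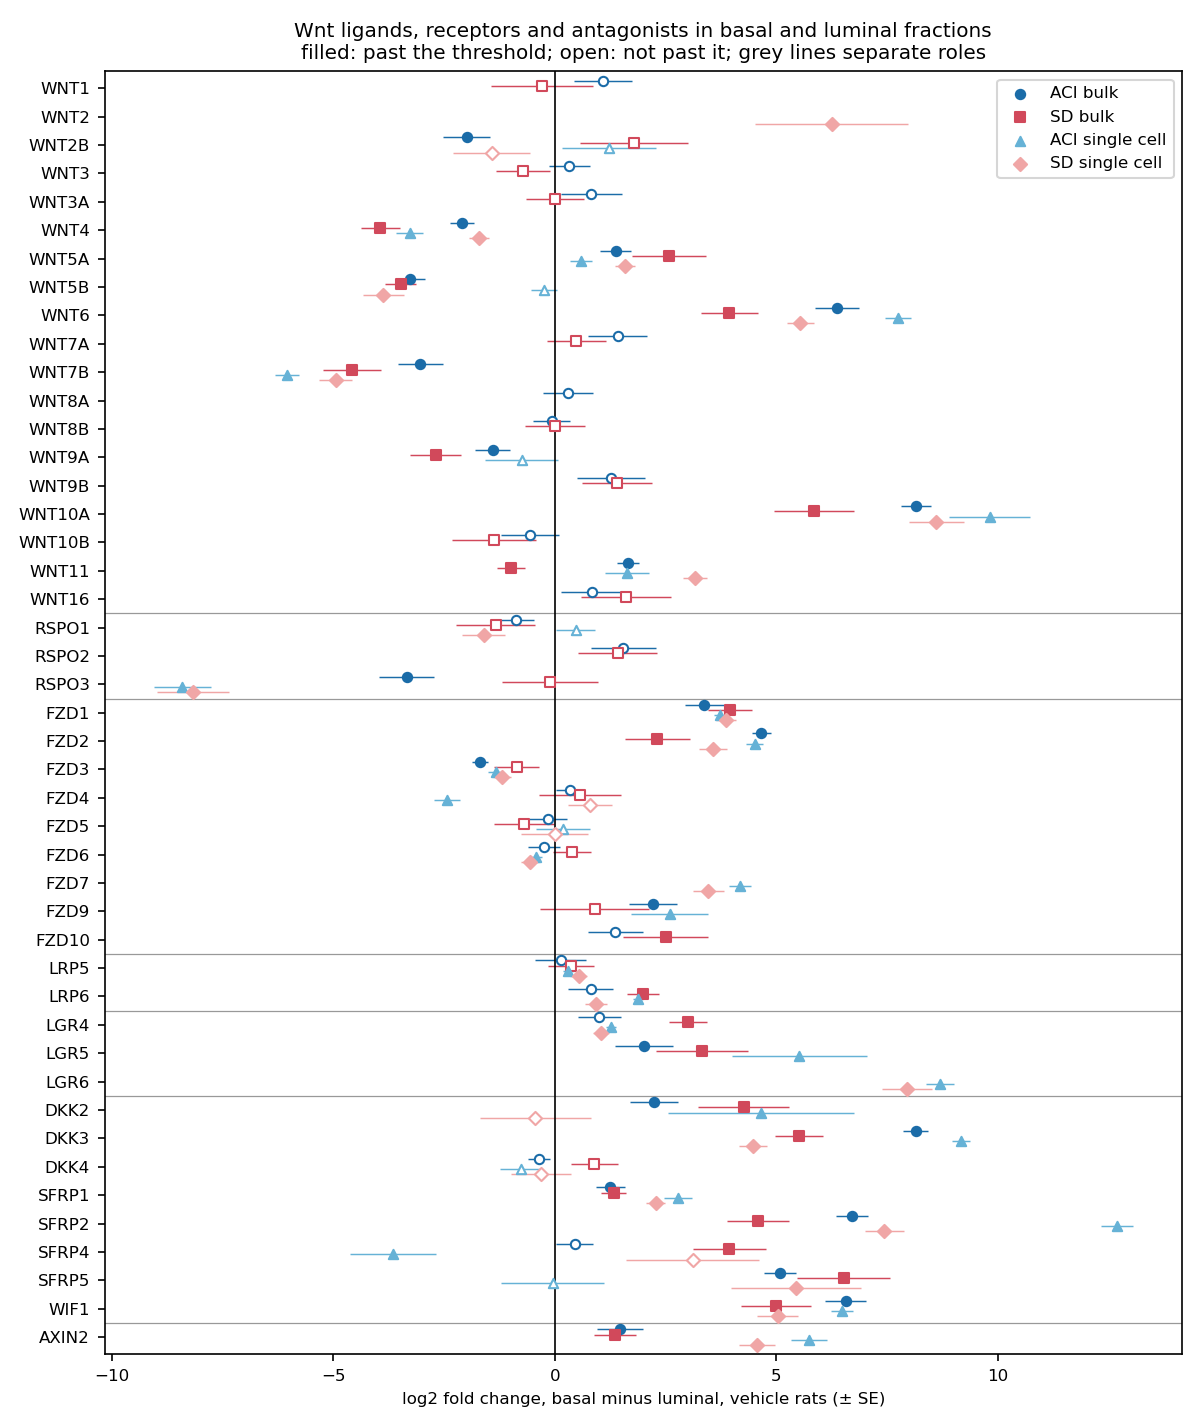
Log2 difference between basal and luminal cells of vehicle rats (x axis, basal minus luminal, bars of 1 SE) for each member (y axis, grouped by role) in bulk and single-cell data of ACI and SD rats; filled points passed the threshold of their test. WNT10A, WNT6, SFRP2, DKK3 and WIF1 lie far to the basal side, and WNT4 and WNT7B to the luminal side, in all 4 data sets.

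Among the ligands, WNT10A and WNT6, which activate β-catenin signaling, marked the basal fraction. WNT10A was listed at 75.1, 283 and 1024 normalized reads (lowest, median and highest of 9 basal ACI libraries) and at 0 in all 9 luminal libraries, a difference of at least 1420-fold. In SD rats it was listed at 170, 196, 294 and 370 in basal libraries and at 0, 0, 6.06 and 45.7 in luminal libraries, the highest being the luminal library of replicate 1 with the high basal list. The log2 difference in SD rats was 5.85 ± 0.91 (SE, adjusted p = 5e-06 by limma), and 5.16 to 7.01 with any 1 library left out. WNT6 ran at 380, 457 and 1074 normalized reads in basal and 1.51, 5.1 and 12 in luminal ACI libraries, without overlap (log2 difference 6.37 ± 0.50, adjusted p = 1.43e-11, limma). In SD rats WNT6 was at 290, 372, 403 and 415 against 14.3, 17.5, 23.6 and 46.8 (3.94 ± 0.64, adjusted p = 1.03e-05, limma). In single cells, which the authors had filtered for keratin reads, WNT6 held 62, 85.7 and 98.9 CPM in basal and 0.189 to 0.446 CPM in luminal ACI libraries. Schwann-like cells of whole SD glands held more WNT6 than basal epithelium-like cells, and the Schwann cell list was higher in the basal sort of SD rats. The part of Schwann cells in the basal values was not tested.

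The luminal ligands were WNT4, a progesterone-induced paracrine ligand, WNT7B and WNT5B, a ligand of the non-canonical branch. WNT4 was at 140, 238 and 722 normalized reads (lowest, median and highest) in basal and at 679, 785 and 2273 in luminal ACI libraries (log2 difference -2.11 ± 0.27, adjusted p = 2.69e-07, limma). In SD rats it was at 115, 144, 145 and 174 in basal and at 1323, 2069, 2334 and 3746 in luminal libraries (-3.94 ± 0.43, adjusted p = 1.46e-08, limma). The ACI groups overlapped at their edges and the SD groups did not. WNT7B was at 8.07, 27.2 and 56.7 against 46, 220 and 318 in ACI rats and at 3.82, 12.2, 21.8 and 24.9 against 169, 334, 403 and 527 in SD rats, log2 differences of -3.04 ± 0.50 and -4.57 ± 0.66. WNT5B ran at 32.3, 139 and 257 against 588, 828.8 and 3636 in ACI rats and at 182, 192, 201 and 241 against 1260, 1926, 2460 and 4435 in SD rats (-3.26 ± 0.33 and -3.48 ± 0.35). In single cells WNT5B was 3.87 ± 0.46 log2 units lower in basal than luminal SD cells, but in ACI cells it held 14.6, 23.9 and 29.6 CPM against 18.4, 31.1 and 32.2 CPM, overlapping groups (-0.25, adjusted p = 0.483, edgeR).

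**Figure D2:**
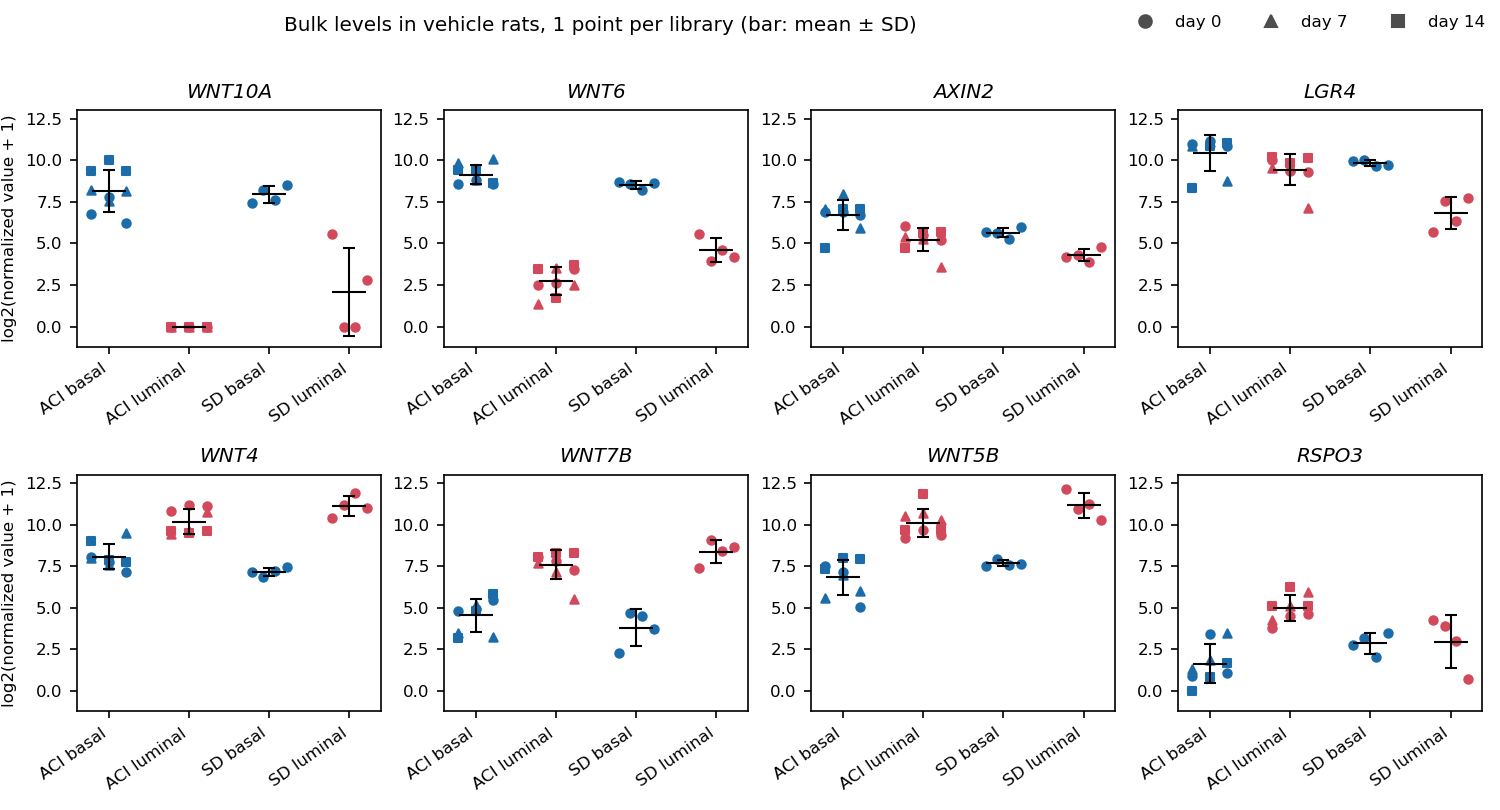
Normalized reads of 8 members in each basal and luminal bulk library of vehicle rats (y axis, log2 of the value plus 1; points are libraries, bars the mean and SD), for ACI and SD rats. Shapes mark the day. WNT10A and WNT6 separate the fractions with basal libraries above, and WNT5B with luminal libraries above; for AXIN2 the ACI ranges run from 25.4 to 247 and from 11.1 to 64.2 normalized reads and overlap.

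WNT11, another non-canonical ligand, was higher in basal cells in 3 of the 4 data sets. These were ACI bulk libraries (863, 2249 and 5011 against 400, 747 and 1097 normalized reads, log2 difference 1.65 ± 0.25), ACI single cells (9.99, 26.6 and 26.6 against 2.77, 8.36 and 9.73 CPM, 1.63 ± 0.50) and SD single cells (41.9, 54.3 and 61.4 against 3.67, 6.68 and 7.19 CPM, 3.17 ± 0.27). In bulk libraries of young SD rats it was lower in basal cells, at 279, 347, 403 and 554 against 704, 746, 798 and 821 normalized reads (-1.0 ± 0.31, adjusted p = 0.0111, limma), and that call was lost without the basal library of vehicle replicate 1 (adjusted p = 0.050). In the SD vehicle rats with tumors after NMU, WNT11 was at 3873, 5049 and 6234 in basal and 749, 1088 and 1243 in luminal libraries, higher in basal cells in 3 of 3 rats, a difference that was not tested. WNT5A was higher in basal cells by 1.37 ± 0.35 in ACI and 2.57 ± 0.83 log2 units in SD bulk libraries, and WNT9A was lower by 1.40 ± 0.39 in ACI and 2.69 ± 0.58 in young SD rats. In the SD vehicle rats after NMU, WNT9A overlapped between basal (111, 192 and 281) and luminal libraries (117, 129 and 280). Without the luminal library of replicate 3, the SD bulk call of WNT5A was lost (adjusted p = 0.056, limma). WNT5A overlapped in ACI single cells, at 13.2, 13.9 and 15.2 CPM in basal and 6.89, 7.63 and 13.7 CPM in luminal cells. That call was lost without basal replicate 2 or 3 or luminal replicate 1 or 3 (adjusted p from 0.118 to 0.190, edgeR).

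R-spondins divided by member. RSPO3 was the only one past the threshold in ACI bulk libraries without the rat as a block, at 0, 1.47 and 10.4 normalized reads in basal and 12.5, 33.7 and 74.6 in luminal libraries (-3.35 ± 0.61, adjusted p = 5.83e-05, limma). In SD bulk libraries it was not called (-0.11, adjusted p = 0.964). In single cells of both strains RSPO3 was nearly restricted to the luminal sort, at 0, 0 and 0.0459 CPM against 7.46, 9.64 and 16.9 CPM in ACI rats and at 0, 0.145 and 0.162 CPM against 14.8, 25.8 and 51 CPM in SD rats. The log2 differences were -8.41 ± 0.65 and -8.17 ± 0.81 (adjusted p = 7.23e-06 and 8.19e-05, edgeR). The basal SD bulk libraries are those with the high fibroblast list, and its part in the bulk value was not tested.

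The R-spondin receptors were higher in basal cells. LGR6 held 21.7, 24.0 and 24.0 CPM in basal and at most 0.0945 CPM in luminal ACI cells, and 11.1, 13.3 and 17.3 CPM against at most 0.136 CPM in SD cells, log2 differences of 8.70 ± 0.31 and 7.96 ± 0.56. LGR4 was the more abundant of the receptors in both sorts, with 78.8, 81.5 and 83.2 CPM against 27.8, 34.2 and 39 CPM in ACI cells (1.27 ± 0.12, adjusted p = 2.25e-05, edgeR). In SD bulk libraries LGR4 was at 819, 846, 986 and 1028 against 50.2, 81.9, 187 and 211 normalized reads (3.01 ± 0.43, adjusted p = 1.16e-06, limma), and in ACI bulk libraries its difference of 1.01 ± 0.49 had an adjusted p of 0.125 without and 0.00713 with the rat as a block (limma). LGR5, a stem cell marker in several epithelia, was called in basal cells of both bulk sets (2.01 ± 0.66 and 3.32 ± 1.03), but held under 1 CPM in the basal single cells. The ACI call was lost without the basal library of day 0 replicate 3 (adjusted p = 0.056) or the luminal library of day 14 replicate 1 (adjusted p = 0.051), and with the rat as a block and all libraries the adjusted p was 0.00228 (limma).

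Among the Frizzled receptors, FZD1, FZD2 and FZD7 were higher in basal cells. FZD1 ran at 275, 1313 and 1781 normalized reads against 25.4, 117 and 177 in ACI rats (3.37 ± 0.44), and at 609, 626, 699 and 718 against 28.5, 44.4, 45.8 and 51.8 in SD rats (3.96 ± 0.50). FZD2 was at 234, 281 and 412 against 3.81, 12.5 and 24.0 in ACI rats (4.66 ± 0.22). FZD7 held 35.3, 37.2 and 38.6 CPM in basal against 1.13, 1.78 and 3.06 CPM in luminal ACI cells, a log2 difference of 4.18 ± 0.24. FZD3 went the other way, by -1.70 ± 0.18 in ACI bulk libraries, and by -1.34 ± 0.17 and -1.19 ± 0.21 in ACI and SD single cells. The co-receptor LRP6 was higher in basal cells of SD bulk libraries (677, 690, 860 and 1163 against 118, 189, 203 and 415 normalized reads, 1.98 ± 0.36) and in both single-cell sets (1.88 ± 0.12 and 0.92 ± 0.25). LRP5 differed by 0.30 ± 0.12 and 0.54 ± 0.19 in single cells, calls that were each lost without any of 3 libraries. In ACI rats these were basal replicate 3 and luminal replicates 1 and 2 (adjusted p = 0.179, 0.158 and 0.155), and in SD rats basal replicate 1 and luminal replicates 1 and 3 (adjusted p = 0.155, 0.168 and 0.141, edgeR).

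Among the antagonists, 6 of 8 members were higher in basal and 0 in luminal ACI bulk libraries, and 7 and 0 of 8 in SD bulk libraries. Of all genes tested, 3020 of 15824 were called higher in basal ACI and 3188 of 14646 in basal SD libraries. DKK3, a divergent Dickkopf protein, was at 3150, 8354 and 12749 normalized reads in basal and 8.29, 31.3 and 72.4 in luminal ACI libraries (8.14 ± 0.28, adjusted p = 6.9e-19, limma). SFRP2 was at 565, 1113 and 1695 against 0, 12.7 and 33.5 (6.72 ± 0.36) and WIF1 at 328, 760 and 2488 against 0, 10.2 and 22.6 (6.56 ± 0.47). In basal single cells of ACI rats SFRP2 was at least 852-fold higher, with no UMI in the luminal libraries. SFRP1 was the antagonist with the highest CPM in both sorts, at 490, 584 and 624 CPM in basal and 45.3, 84.9 and 116 CPM in luminal ACI cells (2.78 ± 0.31).

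SFRP5 in both strains and SFRP4 in SD rats behaved differently in bulk and in single cells. SFRP5 was at 148, 316 and 1284 normalized reads in basal ACI libraries against 1.51, 12.4 and 26.6 (5.09 ± 0.36), and at 733, 1252, 1362 and 1490 in basal SD libraries against 1.39, 8.76, 16.1 and 65.1 (6.52 ± 1.04). In the sorted basal single cells, which the authors had filtered for keratin reads, it held 0, 0 and 0.229 CPM in ACI and 0.123, 0.324 and 1.02 CPM in SD rats. SFRP4 was at 448, 781, 880 and 1198 against 26.3, 39.7, 72.6 and 80.5 normalized reads in SD bulk libraries (3.94 ± 0.82). Its groups overlapped in SD single cells, at 0.145, 0.246 and 11.5 CPM in basal and 0.194, 0.34 and 0.688 CPM in luminal cells. They also overlapped in ACI bulk libraries, at 28.6, 123 and 187 against 15.9, 75.4 and 165 normalized reads. ACI single cells held low levels, with 0, 0.0949 and 0.275 CPM in basal and 0.569, 1.56 and 4.54 CPM in luminal cells (-3.65 ± 0.97, adjusted p = 0.0118, edgeR). In whole glands these 2 genes peaked in Schwann-like and in fibroblast-like cells, and the lists of both cell types were higher in the basal sort of SD rats. The part of these cells in the bulk differences was not tested.

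AXIN2, the feedback target read as a marker of canonical signaling, was higher in basal cells in all 4 data sets. It was at 25.4, 119 and 247 normalized reads in basal and 11.1, 40.9 and 64.2 in luminal ACI libraries (1.48 ± 0.51, adjusted p = 0.0255, limma), overlapping ranges. In SD rats it was at 38.2, 48.5, 49.6 and 61.8 against 13.9, 17.1, 18.5 and 26.3, which did not overlap (1.36 ± 0.48, adjusted p = 0.0229, limma). Without the rat as a block, the bulk calls were sensitive to single libraries, and with it the adjusted p was 0.000346 in ACI and 0.0137 in SD rats (limma). The ACI call was lost without any of 5 of the 18 libraries, basal day 7 replicate 2, basal day 14 replicates 2 and 3, luminal day 7 replicate 3 and luminal day 14 replicate 1 (adjusted p from 0.053 to 0.063), and the SD call without basal replicate 4 (adjusted p = 0.066) or luminal replicate 3 (0.068) and by edgeR on the recovered reads (0.0503). The single-cell difference was larger, with 8.98, 10.3 and 16.1 CPM in basal against 0.0711, 0.279 and 0.284 CPM in luminal ACI cells (5.75 ± 0.41, adjusted p = 3.33e-06, edgeR) and 4.67, 7.84 and 8.43 CPM against 0.204, 0.292 and 0.344 CPM in SD cells (4.56 ± 0.41, adjusted p = 1.34e-05).

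Whole SD glands placed the members across stroma and epithelium. The 103524 cells were clustered without the 44 members present in these data. Marker lists named 12 classes, and 17 clusters stayed unnamed. The 12 classes and the largest unnamed cluster, led by CRABP1 and CAR3, were used as 13 classes (92188 cells), and the other 16 unnamed clusters (11336 cells) entered no comparison. Levels by class are a description and were not tested. Among the 40 members with at least 10 UMIs in the 3 vehicle rats, 23 had their highest mean level in a stromal class, 14 in an epithelial class and 3 in a leukocyte class. The 23 include 4 members highest in the unnamed cluster, which was counted here as stroma. For 17 of the 40 members the range over the 3 rats did not overlap that of the next class. No share over all genes is given beside these counts, so they are not read as particular to the members.

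**Figure D3:**
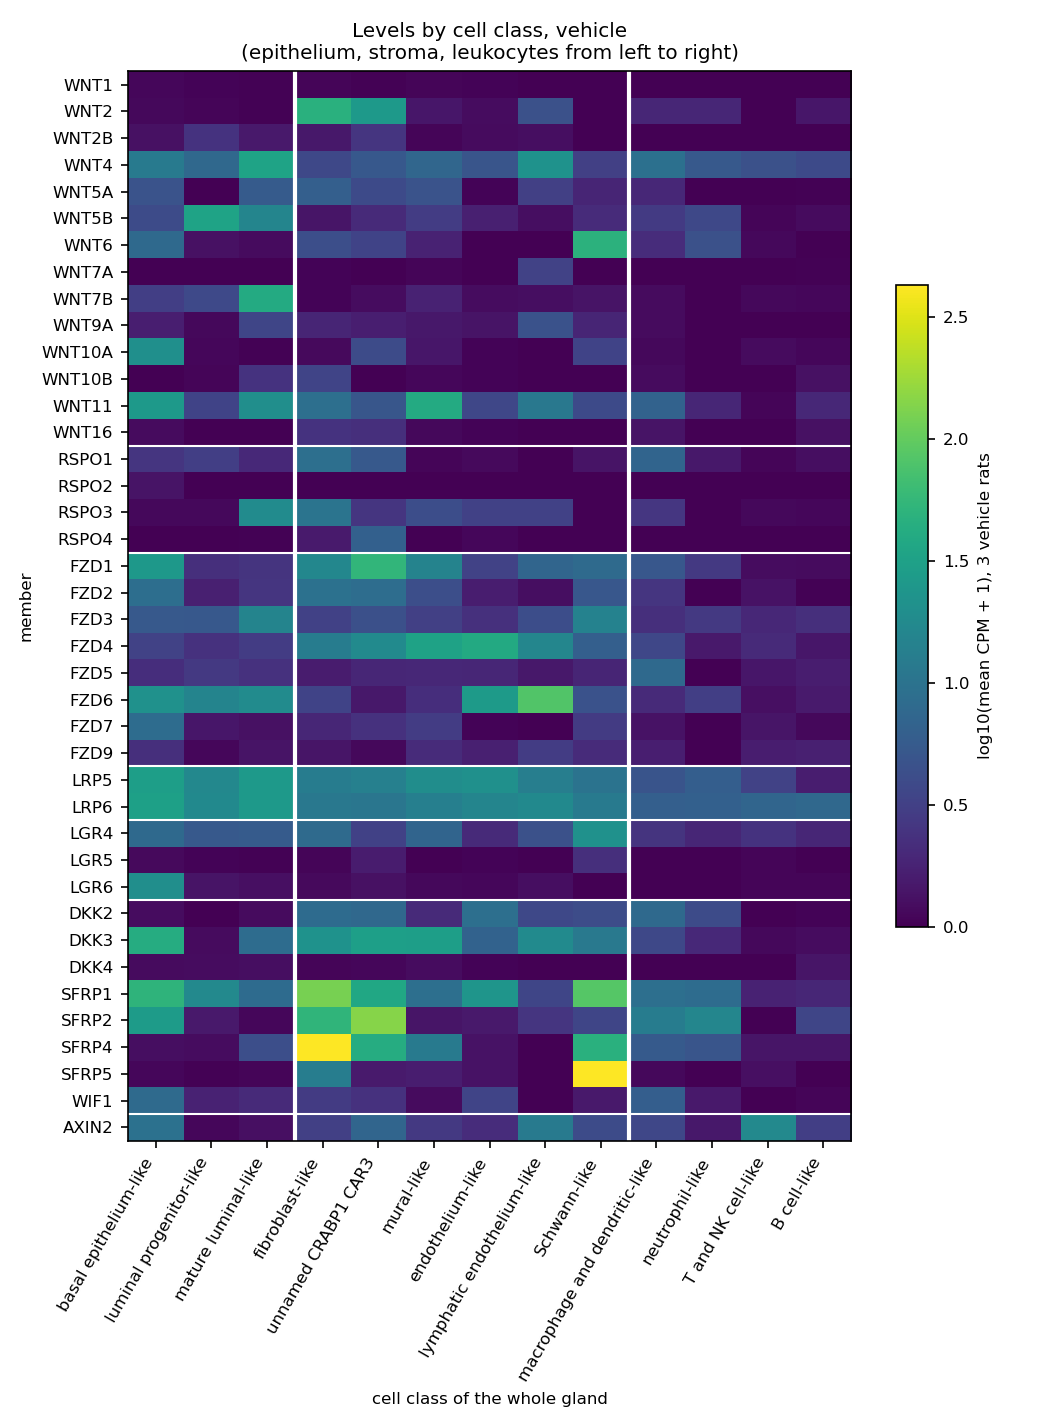
Mean level of each member (rows, grouped by role) in each cell class of whole glands of vehicle SD rats (columns), as log10 of the mean CPM over 3 rats plus 1. SFRP4 stands out in fibroblast-like cells (418.9 CPM) and SFRP5 in Schwann-like cells (425.4 CPM), and LGR6 is nearly limited to basal epithelium-like cells.

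Several antagonists had their highest level in a stromal class. In fibroblast-like cells SFRP4 averaged 418.9 CPM (range over rats 366.9 to 509.3) and SFRP1 121.9 CPM. An unnamed cluster led by CRABP1 and CAR3 held the most SFRP2, at 140.5 CPM (87.7 to 210.1), and also the most FZD1 (53.4 CPM, 43.9 to 61.5) and RSPO4 (5.4 CPM, 2.87 to 6.75). Schwann-like cells held SFRP5 at 425.4 CPM (339.3 to 548.8), against 11.9 CPM in the next class, as well as the most LGR4 (20.46 CPM) and the most WNT6 (47.4 CPM, 43.9 to 53.1), which in basal epithelium-like cells stood at 6.99 CPM. None of these ranges overlapped the next class.

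Ligands were spread over compartments. WNT2 was highest in fibroblast-like cells (45.4 CPM, 38.4 to 54.1), and WNT11 in mural-like cells (39.3 CPM, 29.6 to 52.3) with a range that overlapped that of basal epithelium-like cells. WNT7B was highest in mature luminal-like cells (39.4 CPM, 28.7 to 50.3), where luminal progenitor-like cells held 2.80 CPM. WNT5B was highest in luminal progenitor-like cells (32.2 CPM, 30.4 to 33.4) and averaged 14.9 CPM in mature luminal-like cells, so the luminal ligands separated by luminal class. WNT4 was highest in mature luminal-like cells (32.5 CPM) and RSPO3 too (17.6 CPM), but both ranges overlapped the next class. WNT10A averaged 19.5 CPM in basal epithelium-like cells, with a range over rats of 5.46 to 29.6 that overlapped the next class.

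Receptors also had their own places. LGR6 held 19.1 CPM (18.0 to 20.6) in basal epithelium-like cells and 0.388 CPM in the next class, and FZD7 7.48 CPM (5.46 to 9.95) against 1.94. FZD6 was highest in lymphatic endothelium-like cells (80.8 CPM, 68.2 to 89.4), FZD4 in endothelium-like cells (38.1 CPM, overlapping mural-like cells), and FZD5 in macrophage and dendritic-like cells (6.86 CPM, 5.59 to 8.84). LRP5 (28.7 CPM) and LRP6 (30.0 CPM) were highest in basal epithelium-like cells, with ranges that overlapped those of mature luminal-like cells. AXIN2 was highest in T and NK cell-like cells (16.3 CPM, 11.2 to 19.2), ahead of lymphatic endothelium-like cells (11.2 CPM) and basal epithelium-like cells (8.54 CPM), with overlapping ranges.

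TGFBRi treatment changed few members in bulk libraries. Over all 44 bulk comparisons, those between fractions and of parity and E2 included, at least 1 member passed in 13. In the other 31, which cover ACI days 7 and 14, SD day 0, parity and tumors among others, 0 of 1202 member tests passed by limma, 91 had an unadjusted p under 0.05, and edgeR and DESeq2 on the recovered reads called 0 and 12. In those 31 comparisons 0.0371% of all gene tests passed by limma, from 0 to 1.04% by comparison. DESeq2 called from 0 to 577 genes per comparison there.

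At day 0 the TGFBRi libraries of ACI replicates 1 and 2 stood apart in both epithelial fractions. They held the fewest reads of their fraction at that day (4194912 and 6562769 in basal, 8922897 and 10192039 in luminal cells, others 12382292 to 21160386) and the most genes above 0 (15058 to 15297 of 15826, others 12096 to 14603). WNT3A, a member otherwise at 2.31 normalized reads or less in these fractions at day 0, was at 78.5 and 98.97 in their basal and at 24.2 and 15.0 in their luminal libraries. The day 0 results of both epithelial fractions are therefore also given without these libraries, a setting chosen after the values were seen. It leaves 1 TGFBRi library, assumed to vary like the other groups. The CD45+ results at day 0 were not refitted in this way, and CD45+ replicates are numbered in another order of rats.

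At day 0 in basal cells of young ACI rats, 2 of 42 members passed, where 3.34% of all genes did. SFRP5 rose from 507, 1055 and 1284 normalized reads in vehicle to 3715, 7860 and 8178 in TGFBRi rats, without overlap (log2 difference 2.81 ± 0.48, adjusted p = 0.00861, limma), while the median over all genes was 0.30. The call was lost without TGFBRi replicate 2 (adjusted p = 0.050) or vehicle replicate 1 (0.054). In the same libraries the Schwann cell list summed to 7010 to 12292 normalized reads in vehicle and to 20718 to 32951 in TGFBRi rats, and its part in the rise was not tested. SFRP2 fell from 711, 1183 and 1695 to 98.3, 354 and 428 (-2.19 ± 0.53, adjusted p = 0.0395, limma), and the call held without TGFBRi replicate 3 and was lost without each of the other 5 libraries (adjusted p up to 0.15) and by edgeR on the recovered reads (0.0867). Without the TGFBRi libraries of replicates 1 and 2 the changes were 3.21 ± 0.68 for SFRP5 (adjusted p = 0.0495, limma) and -3.50 ± 0.63 for SFRP2 (0.0263). By day 7 SFRP5 was at 148, 248 and 316 in vehicle and 558, 826 and 1142 in TGFBRi rats, and at day 14 at 267, 289 and 401 against 147, 159 and 401, neither called. SFRP2 at day 14 was at 712, 845 and 1658 against 890, 917 and 1335.

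In luminal cells at day 0, 3 of 42 members passed, where 1.01% of all genes did, and all 3 rose from low levels. DKK3 rose from 8.29, 9.48 and 21.9 to 81.9, 183 and 190 normalized reads (3.45 ± 0.57, adjusted p = 0.0266, limma) and SFRP2 from 0, 3.13 and 3.32 to 9.34, 33.4 and 41.2 (3.24 ± 0.74, adjusted p = 0.0477). WNT8B, a ligand best known from the nervous system, was listed at 0 in the vehicle libraries and at 5.09, 7.11 and 10.0 in the TGFBRi libraries, at least 9.52-fold higher (adjusted p = 0.0306). None of the groups overlapped. DKK3 kept its call without TGFBRi replicate 3 or vehicle replicate 1, and the other 2 genes only without TGFBRi replicate 3 (adjusted p up to 0.216). By edgeR on the recovered reads none of the 3 passed (adjusted p = 0.0647 for DKK3, 0.200 for SFRP2 and 0.228 for WNT8B). Without the TGFBRi libraries of replicates 1 and 2 none passed, with changes of 3.87 ± 0.81 for DKK3 (adjusted p = 0.0704, limma), 1.98 ± 0.99 for SFRP2 (0.786) and 2.61 ± 0.81 for WNT8B (0.348). At day 14 DKK3 was at 32.9, 56.5 and 72.4 in vehicle and 56.9, 68.3 and 80.3 in TGFBRi libraries. DKK3 and SFRP2 stood far higher in basal cells, with medians of 8354 and 1113 normalized reads over the 9 basal vehicle ACI libraries. The part of basal cells in the luminal rises was not tested.

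In CD45+ cells at day 0, 3 of 39 members fell and 0 rose, where 2.85% of all genes passed. SFRP4 fell from 1375, 2290 and 2729 to 61.8, 144 and 162 normalized reads (-4.17 ± 0.64, adjusted p = 0.00293, limma), a call kept with any 1 of the 6 libraries left out. SFRP2 fell from 134, 165 and 181 to 12.1, 16.2 and 59.8 (-2.74 ± 0.71, adjusted p = 0.0494) and LRP5 from 383, 581 and 591 to 64, 135 and 285 (-1.90 ± 0.47, adjusted p = 0.0431). These 2 calls held without TGFBRi replicate 2 or vehicle replicate 3 and were lost without each of the other 4 libraries (adjusted p up to 0.184), and by edgeR on the recovered reads (0.111 and 0.0905). Markers of cells outside the CD45+ gate moved with them. The fibroblast list summed to 371931, 624380 and 748262 normalized reads in vehicle and 24476, 66145 and 152024 in TGFBRi libraries, with 5 of its 11 genes lower, and 6 of 8 basal epithelial markers were lower (3492 to 12765 against 113 to 204), whereas 3 of 5 neutrophil markers were higher. Their part in these changes was not tested. At day 7 SFRP4 was at 1262, 1350 and 1617 in vehicle and 1272, 1379 and 3789 in TGFBRi libraries.

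In basal cells of adult virgin rats 3 of 40 members fell, where 8.73% of all genes passed, and each call held with any 1 of the 8 libraries left out. LRP6 fell from 2594, 3884, 3893 and 4090 to 712, 1030, 1652 and 1834 normalized reads (-1.54 ± 0.26, adjusted p = 0.00293, limma, beside a median of -0.25 over all genes). LGR5 fell from 8.19, 29.7, 32.2 and 40.8 to 0 in all 4 TGFBRi libraries, at least 37.4-fold lower (adjusted p = 0.00886), and WNT2B from 33.6, 40.8, 51.1 and 63.6 to 0, 0, 0 and 20.7 (-4.44 ± 0.97, adjusted p = 0.011, limma). By edgeR on the recovered reads WNT2B had an adjusted p of 0.174. The TGFBRi libraries of these rats listed fewer genes above 0 (10151 to 11434 of 13463) than their vehicle libraries (12123 to 12561) or those of parous rats (11775 to 12575). DKK2, RSPO2, WNT1, WNT10B and WNT9B were also at 0 in all 4 of them, and were above 0 in 1 to 3 of the 4 vehicle libraries. The part of this lower detection in the falls of LGR5 and WNT2B was not tested. In parous rats LRP6 was at 3470, 3604, 3878 and 4808 in vehicle and 3301, 3875, 3960 and 5071 in TGFBRi libraries, and LGR5 at 10.9, 14.2, 16.6 and 36.3 against 0, 8.16, 28.5 and 30.8. The difference between the treatment effects in parous and virgin rats was 1.58 ± 0.37 for LRP6 (adjusted p = 0.0514, limma, and 0.00579 by DESeq2) and 3.70 ± 1.37 for LGR5 (adjusted p = 0.193, and 0.012 by DESeq2).

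After NMU, 1 of 38 members passed in basal cells of TGFBRi rats with tumors, where 1.31% of all genes did. WNT5B fell there from 1150, 1289 and 1365 to 284, 457 and 650 normalized reads (-1.53 ± 0.30, adjusted p = 0.0349, limma), a call that held without TGFBRi replicate 1 and was lost without each of the other 5 libraries (adjusted p up to 0.156). In luminal cells LRP5 was the 1 member of 39 that passed in TGFBRi rats without tumors, where 0.948% of all genes did, and in those with tumors, where 0.212% did. It was at 147, 216 and 245 normalized reads in vehicle, at 527, 1078 and 1557 in tumor-free TGFBRi rats (2.27 ± 0.46, adjusted p = 0.0305, limma) and at 726, 1207 and 1477 in tumor-bearing TGFBRi rats (2.45 ± 0.46, adjusted p = 0.0365). Both comparisons share the vehicle libraries. Both calls held without vehicle replicate 3 and were lost without vehicle replicate 1 or 2 or any TGFBRi library of the comparison (adjusted p up to 0.264 and 0.338).

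Sorted single cells at day 0 gave more calls. In basal ACI cells (3 against 3 rats) 11 of 32 members passed, 1 higher and 10 lower after TGFBRi, where 33% of all genes passed, and the median log2 change was -0.30 over the members and -0.03 over all genes. Of 13 receptors and co-receptors tested, 5 fell and 0 rose. LGR6 fell from 20.0, 22.5 and 22.5 to 8.91, 9.54 and 10.8 CPM (-1.14 ± 0.13, adjusted p = 0.000158, edgeR), FZD2 from 21.5, 25 and 27.0 to 10.7, 13.48 and 15.4 CPM (-0.87 ± 0.15) and FZD7 from 32.6, 34.8 and 36.2 to 18.1, 21.1 and 22.2 CPM (-0.75 ± 0.11). LRP6 and LGR4 each fell by 0.36 log2 units, with standard errors of 0.11 and 0.09. WNT6 fell from 58, 80.2 and 91.3 to 39.2, 46.4 and 46.8 CPM (-0.80 ± 0.15, adjusted p = 0.0038). SFRP1 was the member that rose, from 458, 539 and 584 to 721, 845 and 853 CPM (0.61 ± 0.12, adjusted p = 0.00235), with no overlap. DKK3, SFRP2, WIF1 and WNT5B fell by 0.38, 0.49, 0.58 and 0.75. The calls of LRP6 and DKK3 were lost without TGFBRi replicate 1 (adjusted p = 0.131 and 0.120), that of WIF1 without TGFBRi replicate 2 (0.104), that of SFRP2 without any of 4 libraries (TGFBRi replicates 2 and 3, vehicle replicates 2 and 3, up to 0.133) and that of WNT5B without any library other than vehicle replicate 3 (adjusted p up to 0.206). Of the other pathway genes, 4 rose and 10 fell of 38.

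In basal SD cells (6 TGFBRi against 3 vehicle rats) 9 of 35 members passed, 2 higher and 7 lower, where 24.7% of all genes passed. LRP6 fell from 85.7, 135 and 160 CPM to a lowest, median and highest of 33.3, 42.9 and 72.6 CPM (-1.38 ± 0.28, adjusted p = 0.0159, edgeR), FZD7 from 13.52, 16.9 and 17.1 to 4.21, 4.71 and 10.47 CPM (-1.31 ± 0.32) and SFRP2 from 18.2, 19.3 and 24.4 to 6.37, 8.59 and 13.3 CPM (-1.19 ± 0.25). LGR6 (-0.94 ± 0.35), DKK3 (-1.0 ± 0.29), WNT5A (-0.66 ± 0.26) and WNT2 (-2.73 ± 0.90) also fell. WNT6 rose from 12.7, 13.7 and 19 to 21.8, 30.8 and 64.4 CPM (1.33 ± 0.37, adjusted p = 0.038) and WNT10A from 7.86, 10.1 and 15.3 to 13.1, 22.4 and 56.7 CPM (1.29 ± 0.44, adjusted p = 0.0705), the latter with overlap. The 3 vehicle libraries set much of this. Without vehicle replicate 3 the calls of LRP6 (adjusted p = 0.130), SFRP2 (0.140), FZD7 (0.154), WNT6 (0.193) and DKK3 (0.231) were lost, and without replicate 1 those of FZD7 (0.121), WNT6 (0.114) and DKK3 (0.15). The call of WNT2 was lost without any of the vehicle libraries, and without replicate 2 its change was -0.67 (adjusted p = 0.674). Those of LGR6, WNT10A and WNT5A held in 3, 4 and 1 of the 9 fits with 1 library left out. In SD basal cells the mature luminal list summed to 75.5 to 129 CPM in vehicle and 66.9 to 504 CPM in TGFBRi rats (2 of 6 genes tested higher, 1 lower), and its part in these changes was not tested. The paper reports that a rare subset of the sorted cells, which it named secretory basal cells, was enriched after TGFBRi in both strains. The part of that subset was not tested either. WNT6 thus moved down in ACI and up in SD basal cells, and the difference was not tested.

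In luminal single cells 5 of 29 members passed in ACI rats, 1 up and 4 down, where 25% of all genes did. WNT5A fell from 6.24, 6.84 and 12.4 to 3.35, 4.1 and 4.64 CPM (-1.07 ± 0.28, adjusted p = 0.0326, edgeR), lost without TGFBRi replicate 2 (adjusted p = 0.114). FZD7 (-1.54 ± 0.47), RSPO3 (-1.10 ± 0.39), LGR4 (-0.50 ± 0.15) and FZD3 (0.48 ± 0.16) each held in 2 of 6 fits with 1 library left out. In SD rats 4 of 31 passed, 1 up and 3 down, where 31.8% of all genes did. LRP6 fell from 56.8, 59.9 and 86.2 to 14.8, 23.2 and 47.8 CPM (-1.24 ± 0.36, adjusted p = 0.0402, lost without vehicle replicate 1 or 2, 0.115 and 0.147). LGR4 fell by 1.07 ± 0.34 and WNT4 rose from 49.4, 57.3 and 76.2 to 68.4, 98.6 and 135 CPM (0.73 ± 0.23, adjusted p = 0.0481), both lost without any 1 of the vehicle libraries (adjusted p from 0.107 to 0.170). WNT9A fell from at most 0.207 CPM (-2.72 ± 0.95), lost without TGFBRi replicate 3 or vehicle replicate 2 (adjusted p = 0.103 and 0.118). The luminal sort holds more than 1 class of cell. In SD rats the luminal progenitor list summed to 2572 to 4281 CPM in vehicle and 3664 to 11723 CPM in TGFBRi luminal cells (2 of 6 genes tested higher, 1 lower), and the mature luminal list to 1040 to 1579 and 845 to 2797 CPM (1 of 7 higher, 1 lower). In ACI rats the lists summed to 1446 to 4277 and 3997 to 5285 CPM (1 of 6 higher), and to 788 to 1641 and 999 to 1082 CPM (0 of 7). The part of this makeup in the changes was not tested.

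**Figure D4:**
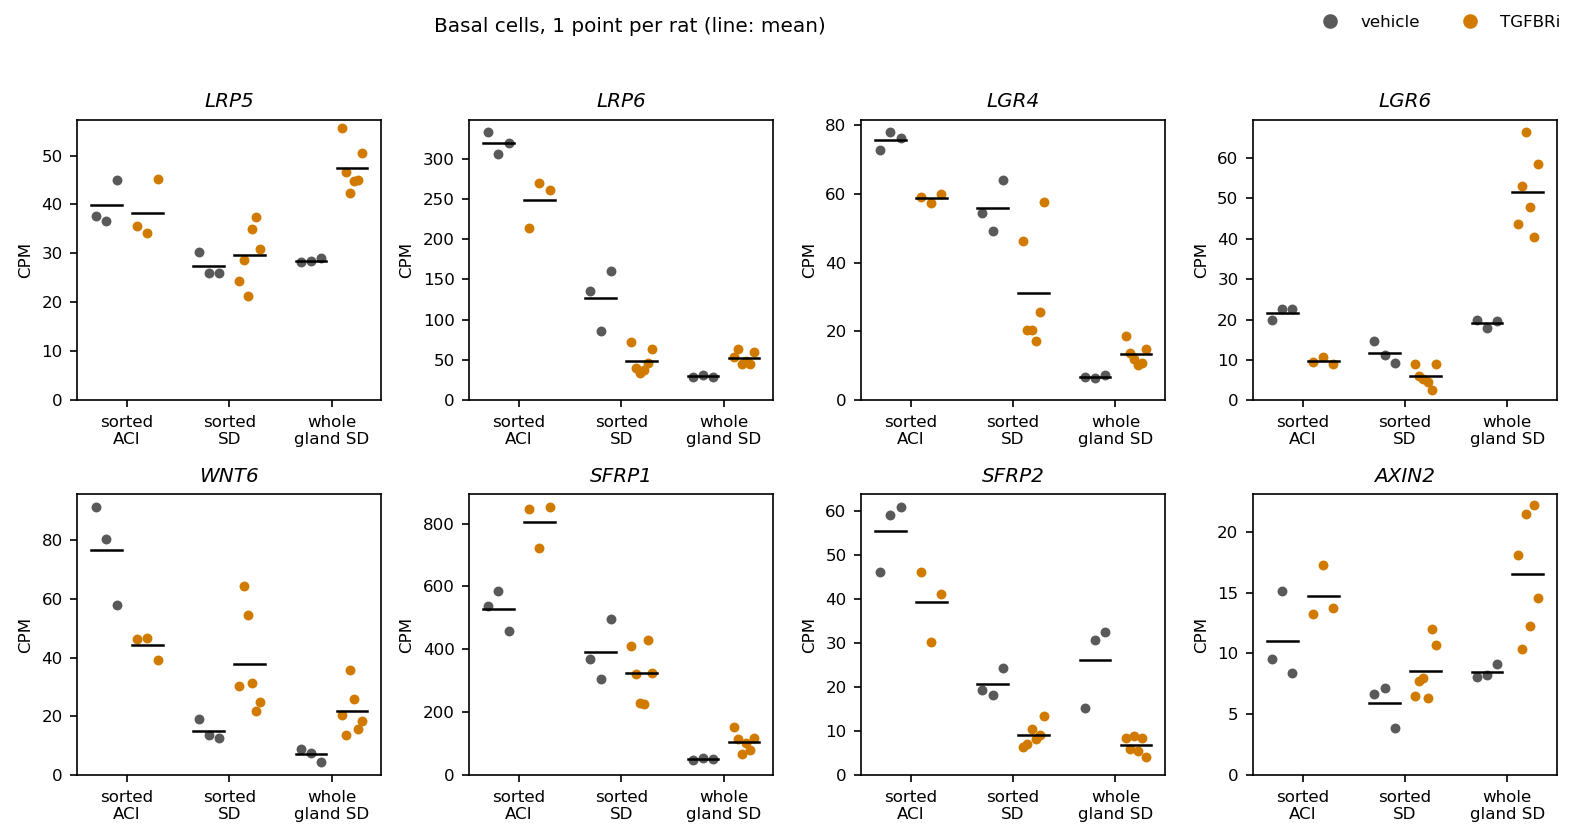
CPM per rat of 8 members in basal cells at day 0 (y axis), in vehicle and TGFBRi rats of the sorted ACI, sorted SD and whole-gland SD data (x axis; points are rats, lines the mean). LGR6 and LRP6 lie lower after TGFBRi in both sorted sets and higher in the whole-gland set, where LGR6 goes from 17.8 to 19.9 CPM in vehicle rats to 40.4 to 66.3 CPM.

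In whole SD glands (6 TGFBRi against 3 vehicle rats) 13 of 33 members passed in basal epithelium-like cells, 9 up and 4 down, where 45.3% of all genes passed. Of 13 receptors and co-receptors tested, 4 rose and 1 fell. LGR6 rose from 17.8, 19.5 and 19.9 CPM to a lowest, median and highest of 40.4, 50.4 and 66.3 CPM (1.44 ± 0.18, adjusted p = 0.00012, edgeR), LGR4 from 6.54, 6.64 and 7.33 to 10.2, 12.9 and 18.7 CPM (0.98 ± 0.22), LRP6 from 28.7, 28.9 and 32 to 44.5, 51.4 and 64.2 CPM (0.81 ± 0.15) and LRP5 from 28.2, 28.4 and 29 to 42.3, 45.8 and 55.6 CPM (0.73 ± 0.13). AXIN2 rose from 8.09, 8.23 and 9.16 to 10.4, 16.4 and 22.2 CPM (0.98 ± 0.25, adjusted p = 0.00823), and WNT6 from 4.58, 7.55 and 8.99 to 13.52, 19.4 and 35.9 CPM (1.56 ± 0.31). None of these groups overlapped. SFRP1 (1.06 ± 0.22), DKK3 (1.19 ± 0.34) and WNT11 (1.08 ± 0.32, lost without vehicle replicate 2, adjusted p = 0.101) rose too. SFRP2 fell from 15.3, 30.5 and 32.4 to 4.14, 7.15 and 8.82 CPM (-1.89 ± 0.27, adjusted p = 0.00027), the same direction as in both sorted sets. WNT7B (-2.94 ± 0.53), WNT9A (-2.01 ± 0.79, held in 5 of 9 fits with 1 rat left out) and FZD6 (-0.60 ± 0.19, lost without vehicle replicate 1, adjusted p = 0.119) fell. WNT7B and WNT9A fell from low levels, 1.15 to 3.36 CPM and 0.611 to 0.761 CPM in vehicle rats. WNT7B stood far higher in mature luminal-like cells, where it fell too. The part of free RNA in these low values was not tested.

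LGR6, LRP6, LGR4, DKK3 and WNT6 were lower in sorted basal ACI cells and higher in whole-gland basal cells, and LGR6, LRP6 and DKK3 were lower in sorted SD cells as well, a contrast that was not tested. AXIN2 and LRP5, higher in whole-gland basal cells after TGFBRi, were called in no treatment comparison of sorted single cells. The sorted libraries were made with 3′ chemistry from gated cells and the whole-gland libraries with 5′ chemistry. The basal class of the whole gland was not made of the same clusters in the 2 groups. A cluster led by IL17B held 82.3% of the TGFBRi and 11.3% of the vehicle basal cells, and a cluster led by EPGN and FST held 9.6% and 78.7%. Within the cluster led by IL17B, as a description chosen after the class values were seen, the mean level of LGR6 was 41.1 CPM in vehicle and 53.1 CPM in TGFBRi rats, of LRP6 35.5 and 54.4, of LGR4 6.7 and 13.7, of SFRP1 78.1 and 108.4, of AXIN2 12.3 and 15.7, and of SFRP2 18.0 and 6.4. The part of the cluster make-up in the class values was not tested.

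Luminal classes shared several of these changes. In luminal progenitor-like cells 8 of 27 members passed, 3 up and 5 down, where 27.1% of all genes did. SFRP1 rose from 14.2, 18.8 and 19.1 to 40.4, 55.5 and 69 CPM (1.67 ± 0.21, adjusted p = 0.000751, edgeR), LGR4 from 2.83, 5.73 and 5.99 to 7.94, 14.0 and 17.6 CPM (1.42 ± 0.29) and LRP5 by 0.98 ± 0.22. WNT11, WIF1, WNT2B, FZD5 and WNT7B fell by 1.97, 1.96, 1.96, 1.2 and 1.13, and each of these 5 calls was lost without at least 1 rat, WNT11 without vehicle replicate 3 (adjusted p = 0.130) and WNT2B without vehicle replicate 2 (0.142). WIF1, FZD5 and WNT7B held in 4, 3 and 3 of the 9 fits with 1 rat left out, and WIF1 fell by 1.00 without vehicle replicate 1 (adjusted p = 0.535). The class was made of unlike clusters, since a cluster led by CSN2 and WAP held 34% of its cells in TGFBRi and 9.7% in vehicle rats. In mature luminal-like cells 13 of 31 passed, 4 up and 9 down, where 29.1% of all genes did. WNT4 rose from 21.6, 32.1 and 49.2 to 59.4, 68.7 and 112 CPM (1.13 ± 0.27, adjusted p = 0.0144) and WNT7B fell from 31.8, 41.1 and 49.5 to 5.99, 11.8 and 19 CPM (-1.71 ± 0.28, adjusted p = 0.00199), both without overlap. SFRP1 (1.31 ± 0.23), LRP5 (0.53 ± 0.14) and LGR4 (0.64 ± 0.21, lost without vehicle replicate 2 or 3, adjusted p = 0.140 and 0.107) rose. WNT10B fell from 1.28, 1.41 and 1.71 to 0.106, 0.157 and 0.327 CPM (-2.94 ± 0.42), and WNT9A, SFRP4, WIF1, WNT11, WNT2B, FZD4 and WNT5B fell by 2.19, 2.39, 1.59, 1.19, 2.36, 1.01 and 0.86. Of these 7, WNT9A and SFRP4 held with any 1 rat left out, and WIF1, WNT11, WNT2B, FZD4 and WNT5B held in 3, 6, 2, 3 and 3 of the 9 fits. Without vehicle replicate 1 WNT11 fell by 0.64 (adjusted p = 0.294), and without vehicle replicate 2 WNT2B fell by 1.25 (adjusted p = 0.454).

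Stromal classes carried further changes. In fibroblast-like cells 7 of 32 members passed, 4 up and 3 down, where 21.6% of all genes did. RSPO1, a ligand of the LGR receptors, rose from 5.67, 10.4 and 11.3 to 14.7, 18.1 and 23.3 CPM (0.99 ± 0.22, adjusted p = 0.00823, edgeR). SFRP4 fell from 392, 464 and 536 to 229, 299 and 405 CPM (-0.64 ± 0.17, adjusted p = 0.0189, lost without vehicle replicate 2, 0.102), overlapping at 1 rat, and WIF1 fell by 1.96 ± 0.48. WNT5A (0.93 ± 0.29), FZD2 (0.73 ± 0.21) and WNT11 (0.68 ± 0.19) rose, all lost without vehicle replicate 1 (adjusted p = 0.138, 0.111 and 0.107) and WNT5A and WNT11 also without replicate 2 (0.159 and 0.116). WNT9A fell by 2.15 ± 0.78 and held in 3 of 9 fits. SFRP4 also fell in mural-like cells, from 5.45, 11.1 and 17.9 to at most 1.37 CPM (-3.83 ± 0.54), and in mature luminal-like cells, from 1.48, 1.59 and 6.93 to at most 0.828 CPM, classes where it stood far below its fibroblast level. The part of free RNA in these low values was not tested.

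In the unnamed cluster led by CRABP1 and CAR3, 7 of 34 members passed, 5 up and 2 down, where 27.8% of all genes did. WNT16 rose from 0.483, 1.32 and 2.48 to 3.63, 6.20 and 10.45 CPM (2.08 ± 0.51, adjusted p = 0.0122, edgeR) and FZD1 fell from 54.8, 56.6 and 63 to 30.3, 37.0 and 45.7 CPM (-0.60 ± 0.17), both without overlap. AXIN2 (1.37 ± 0.42), RSPO1 (1.14 ± 0.39) and LRP6 (0.78 ± 0.26) rose, each lost without vehicle replicate 2 or 3, and FZD2 (0.84 ± 0.27) rose and was lost without vehicle replicate 1 or 2 (adjusted p from 0.109 to 0.169 over the 4 genes). WNT10A fell by 2.22 ± 0.88, held in 1 of 9 fits, and by 0.97 without vehicle replicate 2 (adjusted p = 0.593). In Schwann-like cells 3 of 16 rose, where 10.3% of all genes passed. WNT6 rose from 43.2, 46.6 and 59.3 to 95.4, 111 and 157 CPM (1.22 ± 0.22, adjusted p = 0.000944), a call kept with any 1 rat left out. SFRP5 rose from 334, 400 and 614 to 546, 699 and 882 CPM (0.66 ± 0.18) and LGR5 from 0, 1.49 and 2.53 to 5.96, 9.20 and 18.4 CPM (2.61 ± 0.77), both lost without vehicle replicate 1 or 2 (adjusted p from 0.106 to 0.147).

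LRP5 was the member that rose in the most classes, 6 of the 13. It was called in no treatment comparison of sorted single cells. In bulk libraries of sorted cells LRP5 was called lower in CD45+ cells of ACI rats at day 0 and higher in luminal cells after NMU. Sorted SD cells held LRP5 at 25.9 to 30.2 CPM in vehicle and 21.2 to 37.5 CPM in TGFBRi basal cells. The luminal values were 16.3 to 24.1 and 11.8 to 26.5 CPM. These contrasts with the whole gland were not tested. Beside the 3 epithelial classes of the whole gland, LRP5 rose in endothelium-like cells from 15.1, 17.9 and 32.1 to 36.6, 45 and 52.5 CPM (1.05 ± 0.21, adjusted p = 0.00274, edgeR), where 4 of 23 members and 31.4% of all genes passed. In lymphatic endothelium-like cells, where it was the 1 member of 17 past the threshold beside 15.3% of all genes, it rose from 9.83, 11.9 and 17.8 to 27.0, 31.2 and 39.8 CPM (1.35 ± 0.33, adjusted p = 0.00919). In mural-like cells, where 3 of 28 members and 27.0% of all genes passed, it rose from 17.4, 17.8 and 25.7 to 25.8, 35.1 and 42.9 CPM (0.76 ± 0.19), and AXIN2 rose by 1.36 ± 0.42, lost without vehicle replicate 2 (adjusted p = 0.120). In endothelium-like cells FZD6 fell by 0.52 ± 0.14, and FZD4 (0.48 ± 0.18) and FZD9 (-1.95 ± 0.74) held in 3 and 4 of 9 fits. In macrophage and dendritic-like cells FZD5 fell by 1.93 ± 0.46, lost without vehicle replicate 3 (adjusted p = 0.121), where 1 of 24 members and 3.82% of all genes passed. In the B cell-like, T and NK cell-like and neutrophil-like classes 0 of 45 member tests passed by edgeR, 7 had an unadjusted p under 0.05, and 11.3% of all gene tests passed. By DESeq2 WNT10A passed in T and NK cell-like cells (adjusted p = 0.0801).

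Parity changed no member past the threshold in vehicle adult rats, in basal, luminal or CD45+ cells, by limma, edgeR or DESeq2. Over all genes limma called 0 of 13442, 0 of 14243 and 0 of 13618 in these fractions. The absence of calls is therefore not particular to the members. Genes called by edgeR numbered 0, 3 and 0, and by DESeq2 14, 119 and 0. The members with an unadjusted p under 0.05 by limma numbered 2 of 40 in basal cells, 1 of 42 in luminal cells and 1 of 39 in CD45+ cells. WNT4 in basal cells was at 311, 388, 537 and 798 normalized reads in virgin and 213, 276, 311 and 365 in parous rats (-0.74 ± 0.31, adjusted p = 1, limma). WNT5A in luminal cells was at 247, 269, 322 and 395 in virgin and 126, 167, 205 and 260 in parous rats (-0.73 ± 0.26, adjusted p = 0.405), and in parous rats given TGFBRi at 384, 496, 547 and 614. The interaction of parity and treatment reached 0 members by limma and edgeR and 3 by DESeq2, all in basal cells (LRP6, LGR5 and LGR4), and 14 members in basal, 2 in luminal and 2 in CD45+ cells had an unadjusted p under 0.05. Over all genes in basal cells, 140 of 13442 passed this interaction by limma (1.04%), and edgeR and DESeq2 called 122 and 577.

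WNT5A and WNT4 were lower with E2 in the luminal sort of vehicle rats and of tumor-free TGFBRi rats. Among vehicle rats 2 of 40 members passed, both lower with E2, where 1.48% of all genes did. WNT5A was at 402, 944, 1122 and 1366 normalized reads without E2 and at 49.1, 60.4, 65.9 and 107.1 with E2 and tumors (-3.67 ± 0.52, adjusted p = 0.00126, limma), a call kept with any 1 library left out. WNT4 was at 1516, 1841, 1949 and 3963 against 264, 285, 326 and 390 (-2.78 ± 0.53, adjusted p = 0.0114), lost without replicate 3 of the rats without E2 (adjusted p = 0.053). Among tumor-free TGFBRi rats, where tumors do not differ between the groups, 4 of 40 passed, 1 up and 3 down, beside 4.58% of all genes. WNT5A was at 681, 784 and 1829 without and 53.6, 167, 174 and 324 with E2 (-2.71 ± 0.56, adjusted p = 0.0109, lost without replicate 1 of the rats without E2, 0.054). FZD3 was at 468, 1185 and 1627 against 95.5, 175, 183 and 234 (-2.56 ± 0.49, adjusted p = 0.00628), kept with any 1 library left out. WNT4 was at 3248, 3424 and 4501 against 571, 686, 712 and 719 (-2.46 ± 0.58, adjusted p = 0.0233), and RSPO1 rose from 23.3, 23.9 and 37.8 to 245, 2049, 4938 and 5653 (6.08 ± 1.39, adjusted p = 0.0205). No groups overlapped. The calls of WNT4 and RSPO1 held without E2 TGFBRi sample 6 and were lost without each of the other libraries tried (adjusted p up to 0.068 and 0.089). In the 2 TGFBRi rats with tumors and E2, WNT4 was at 351 and 5227 and RSPO1 at 679 and 1636.

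**Figure D5:**
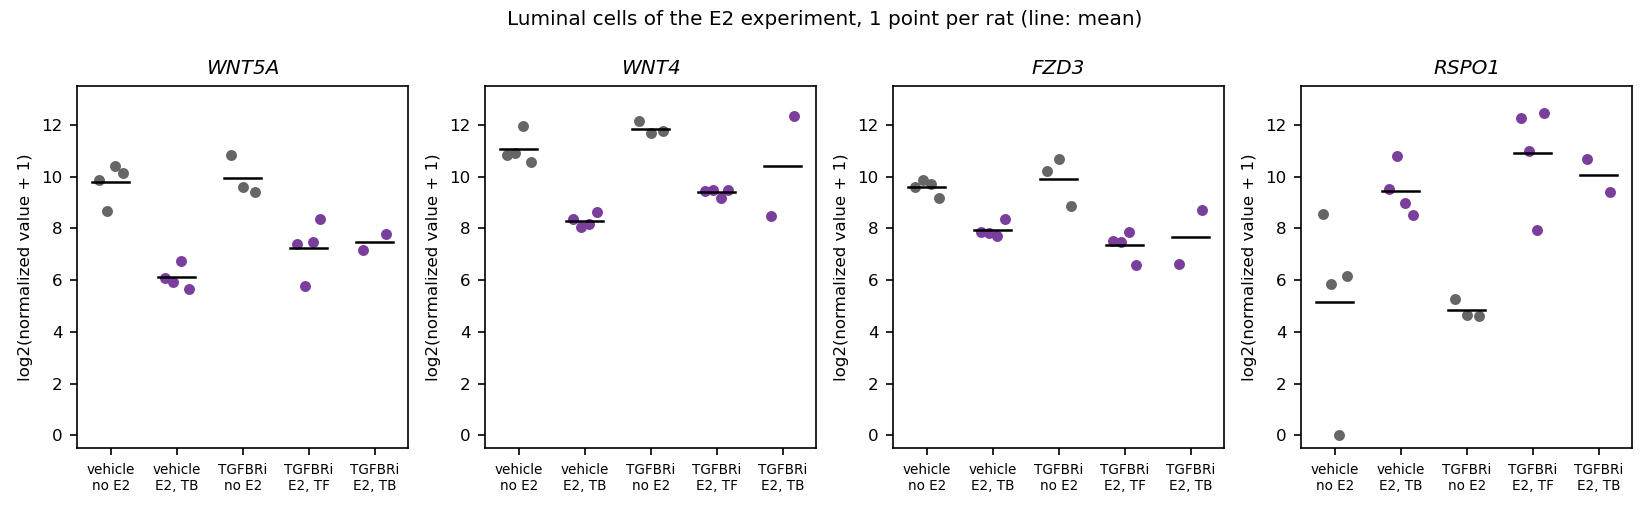
Normalized reads of WNT5A, WNT4, FZD3 and RSPO1 in luminal cells (y axis, log2 of the value plus 1) in each rat of the E2 experiment (x axis; points are rats, lines the mean), by E2, treatment and tumor status (TF, tumor-free; TB, tumor-bearing). WNT5A and WNT4 lie lower in the E2 groups, except for 1 tumor-bearing TGFBRi rat with WNT4 at 5227, and RSPO1 lies higher with E2 in TGFBRi rats.

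The makeup of the luminal sort moved with E2. The mature luminal list summed to 6558 to 49623 normalized reads in vehicle rats without E2 and 2209 to 5344 with E2, with 3 of 7 genes lower, and to 27502 to 32004 and 4540 to 8130 in TGFBRi rats, with 3 of 7 lower. The luminal progenitor list was higher with E2 in TGFBRi rats (194623 to 280585 against 2297830 to 5089050), with 3 of 6 genes higher. The part of this makeup in the changes of WNT4, WNT5A, FZD3 and RSPO1 was not tested. In CD45+ cells WNT5A was the 1 member of 37 past the threshold in vehicle rats, where 0.282% of all genes passed, from 15.0, 22.5, 22.7 and 45.7 to 0, 0, 0 and 1.11 normalized reads (-4.40 ± 0.53, adjusted p = 0.00224, limma, and 0.0738 by edgeR on the recovered reads). In tumor-free TGFBRi rats it was again the 1 member called of 37, where 5.58% of all genes passed, from 4.49, 6.47 and 10.4 to 0, 0.266, 0.748 and 0.881 (-2.44 ± 0.57, adjusted p = 0.0209), a call that held without E2 TGFBRi sample 5 or 7 and was lost without the other libraries (adjusted p up to 0.099). The luminal epithelial list in the CD45+ libraries of vehicle rats summed to 7638 to 14546 normalized reads without and 1224 to 3184 with E2, and its part in the change was not tested.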

How the data were processed

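Bulk RNA-seq libraries were aligned by the authors with STAR 2.5.1b to rn6 and counted with HTSeq without strand on the UCSC refGene annotation. The deposited bulk values are a normalized signal, reads per gene divided by 1 DESeq2 1.30.1 size factor per library. All 2526550 values above 0 (100%) were whole multiples of a step for each library within 0.001, so whole reads were recovered, and the step was less certain in 7 libraries where it lay near 1. The deposited single-cell files hold UMI counts, made by the authors with Cell Ranger 4.0.0 (3′ chemistry, sorted cells) or 7.0.0 (5′ chemistry, whole glands) and filtered with Seurat 4.0.0 or 4.1.1 for cells with at least 100 genes and at most 15% mitochondrial reads, and for sorted cells also no Ptprc read and at least 2 keratin reads.

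The gene family and the lists were chosen with earlier results of these data known, and the members within it by symbol. Bulk values were tested with limma 3.58.1 on log2(value + 1), so fold changes of low genes are understated, keeping genes with a summed value of 10 or more. For treatment, parity and E2, each fraction of an experiment had 1 fit for its groups. Bulk fits between fractions held all basal and luminal libraries of young ACI rats, or of young and NMU-treated SD rats. Their spread was therefore pooled over vehicle and TGFBRi libraries, although only vehicle groups were compared. The Benjamini-Hochberg adjusted p threshold was 0.05. Separately normalized tables were not compared. UMI counts were summed per rat (at least 10 cells) and tested with edgeR 4.0.16 (quasi-likelihood, TMM, at least 10 counts, adjusted p at 0.1). CPM beside these tests are TMM-scaled, and CPM by class in vehicle rats are not. A fold against a group at 0 was computed from 3 counts over the group, which covers counting error only. Whole-gland cells were clustered without the members (scanpy 1.11.5, 2000 variable genes, 30 components, 20 neighbors, Leiden resolution 0.8), and the 6% of cells per library with the highest Scrublet scores were left out as an alternative. Named were all members past a threshold where there were at most 8, otherwise the 6 with the largest change in each direction with a mean of at least 20 in the higher group, and the 3 highest members of each role in each fraction or class. Other members are given as a description. The tests were checked on simulated data. Alternatives were edgeR and DESeq2 1.42.0 on recovered reads, other filters, pseudocounts and scalings, the rat as a block, each library left out and, chosen after the values were seen, the day 0 fits of ACI epithelium without 2 TGFBRi libraries. Basal and luminal libraries of 1 number come from the same rat, which pairs them (consensus correlation 0.519 in ACI and 0.134 in SD bulk data). P-values measure the spread between rats.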

Additional observations from a re-analysis of the deposited data

Results flagged for a closer look

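Only values of named members were tested for samples that stand apart. Within groups of 4 to 10 samples, 6 groups held 1 sample far from the others (5.77% of the groups tested), near the 5.2 that chance gives, since it flags about 1 in 20 groups. Where all others are at 0, any single value above 0 is set apart in this way. The luminal library of SD vehicle replicate 1 stood apart for WNT10A (45.7 normalized reads, others at most 6.06) and DKK2 (2.28, others at 0), and it is the library with the highest sum of basal markers. The basal library of adult virgin vehicle replicate 1 was low for LRP6 (2594, others 3884 to 4090). The basal library of adult virgin TGFBRi replicate 2 was high for WNT2B (20.7, others at 0). The CD45+ library of replicate 4 of the tumor-bearing vehicle rats with E2 was above the others for WNT5A (1.11, others at 0). In the unnamed cluster led by CRABP1 and CAR3, TGFBRi rat 1 had WNT10A at 0 CPM (others 0.578 to 0.846). Outside the values tested, and noticed on inspection, RSPO1 was at 279 CPM in TGFBRi rat 3 of the sorted luminal SD cells (others 1.74 to 21.1) and at 76.6 CPM in TGFBRi rat 3 of the luminal progenitor-like cells (others 2.00 to 4.31).

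Several members moved in opposite directions under the same contrast in all samples of both data sets, and these differences were not tested. The log2 change of WNT6 after TGFBRi was -0.80 in sorted basal ACI cells and 1.33 in sorted basal SD cells. Between sorted basal ACI cells and basal epithelium-like cells of the whole SD gland, the changes were -1.14 and 1.44 for LGR6, -0.36 and 0.81 for LRP6, -0.36 and 0.98 for LGR4, -0.38 and 1.19 for DKK3, and -0.80 and 1.56 for WNT6. Between sorted basal SD cells and the same class they were -0.94 and 1.44 for LGR6 and -1.38 and 0.81 for LRP6. LGR4 changed by -1.07 in sorted luminal SD cells, by 1.42 in luminal progenitor-like cells and by 0.64 in mature luminal-like cells. WNT11 differed between the basal and luminal fractions by -1.0 in bulk libraries of young SD rats and by 3.17 in SD single cells, while bulk libraries of the SD vehicle rats after NMU lay in the direction of the single cells.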

How the results depend on the processing

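No direction reversed. Counts of members called between basal and luminal cells stayed within 1.5 times under every setting. With the rat as a replicate block they were 28 in ACI and 22 in SD bulk data (22 and 22 without) and 26 and 25 in single cells, and the block moved no count by over 1.5 times. At day 0 in ACI rats, DESeq2 called 6 members in basal and 6 in CD45+ cells, edgeR called 1, 0 and 1 in basal, luminal and CD45+ cells, the filter on a mean of 10 left 1 in luminal cells, and fits of only the compared groups called 6 in luminal and 1 in CD45+ cells. With 1 library left out these counts ran from 0 to 6 (basal, 0 without TGFBRi replicate 2 or vehicle replicate 1, 6 without TGFBRi replicate 3), from 0 to 8 (luminal, 8 without TGFBRi replicate 3) and from 1 to 3 (CD45+). Over all genes at day 0, DESeq2 called 1228 in basal and 1042 in CD45+ cells, beside 523 and 420 by limma. Without the TGFBRi libraries of replicates 1 and 2, an alternative chosen after seeing the data, limma called 2 members in basal and 0 of 40 in luminal cells, where 7 had an unadjusted p under 0.05. Over the other treatment comparisons (6 calls) DESeq2 called 21 and fits of only the compared groups 3, and the range with 1 library left out was 4 to 11, with 11 without NMU luminal vehicle replicate 3. For E2, DESeq2 called 4 in vehicle luminal cells and 4 in CD45+ cells of TGFBRi rats. Over all genes it called 624 and 1539 there, beside 201 and 752 by limma. In CD45+ cells of vehicle rats edgeR and the filter on a mean of 10 left 0, and in TGFBRi rats that filter left 0. With 1 library left out the E2 counts ran from 1 to 3 in luminal cells (1 without replicate 3 of the vehicle rats without E2), from 1 to 6 in luminal cells of TGFBRi rats and from 0 to 2 in their CD45+ cells. For parity by treatment DESeq2 called 3, the filter on a mean of 10 gave 1, and the range was 0 to 3 (3 without basal virgin TGFBRi replicate 1). Whole-gland calls (60) were 53 by DESeq2, 62 at resolution 1.2 and 44 to 61 with 1 rat left out. Of the 147 named values, 29 of 753 under the other settings planned and 200 of 1256 with 1 library left out no longer passed. Where a count moved, the cause was not tested. Depth limits members at a few reads or UMIs, such as WNT8B.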

Other observations

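Epithelial (EPCAM+) cells of NMU tumors were normalized apart from the gland and are given as values only. SFRP4 ran from 363 to 20234 normalized reads in the 3 vehicle tumors, with a median of 13198, and DKK3 from 1608 to 9036 in vehicle and from 2929 to 4059 in TGFBRi tumors. WNT4 was at 862 to 1307 and WNT11 at 827 to 3871 in the vehicle tumors. No member passed between TGFBRi and vehicle tumors by limma.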
